A study of Saccharomyces cerevisiae with 8 samples.

Results

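The proteasome core particle genes described here are PRE1, PRE2, PRE5, PRE6, PRE7, PRE8, PRE10, PUP1 and PUP3, followed in lists of RNA polymerase II peaks from budding yeast. They were chosen by name, as the 9 of 14 core particle genes that lie on chromosomes II, V, XIII, XV and XVI, where gene positions could be matched to the peak lists. They are 9 of 6002 nuclear protein-coding genes of the RefSeq table, of which 3432 could be placed. All summits in these genes and within 250 bp of them were taken, and earlier results of these summits were known when the genes were chosen, so their values are a description.

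The study holds 8 samples of strain AM1003, called wild type in the titles, which carries the HO endonuclease under a galactose promoter (GAL::HO). Chromatin was immunoprecipitated with an RPB1 antibody, which binds the catalytic core subunit Rpb1 of RNA polymerase II, from cells 6 h after 2% galactose was added to make a double-strand break (2 libraries), and from cells grown in raffinose before galactose (0 h, 2 libraries). The 4 matching input samples, 2 at each time, were not analysed here. The design text names the placement of polymerase on template genes during break-induced replication, the repair of such a break by long-range copying. All cells carry GAL::HO, so galactose as a carbon source, the break and time in culture cannot be told apart.

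The core particle, or 20S proteasome, is the protein-degrading barrel of the cell. Its outer rings of alpha subunits gate the entry of substrates, and its inner rings of beta subunits hold the proteolytic sites. Regulatory particles cap the barrel, bind ubiquitin-tagged proteins and unfold them. In yeast the genes of both parts share the transcription factor Rpn4, which is itself a short-lived proteasome substrate.

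Replicates 1 and 2 gave 1288 and 1074 summits at 6 h, against 1186 and 1194 at 0 h. A summit is the highest point of a called peak, and its score, on the authors' −log10 scale of significance, ranks summits inside each list only. Sequencing depth is unknown, so a missing summit does not show that polymerase was absent, and a summit list cannot tell fewer cells with polymerase on a gene from less polymerase in each cell. The galactose labels were checked at GAL1, GAL10 and GAL2, genes of galactose use. Each had a summit no more than 250 bp away at 6 h, among the best 1.68% of both lists, and no 0 h library had any there. Whether replicates are separate cultures is not labelled, and their spread may be technical.

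By the gene positions used, polymerase summits of the core particle genes, counting those shared with another gene, lay mostly just past the stop codon at both times. Near the members, summits of other genes were offset from gene middles by -89.1 to 150 bp. The side of the stop codon is therefore uncertain for summits close to it. In all, 35 summits lay in the 9 genes or within 250 bp, of which 25 were past the stop codon, 10 inside the gene and 0 before the start codon. Past the stop codon lay 7 of 7 and 5 of 7 of them in 6 h replicates 1 and 2, and 7 of 11 and 6 of 10 in 0 h replicates 1 and 2. Of the 35 summits, 14 are shared with another gene, including those past the stop codon of PRE7, PRE8, PRE10 and PUP3. In the members with no shared best summit, the 0 h means were not mostly past the stop codon. They were 119.5 (PRE2), 86.5 (PRE6), -67.5 (PRE1), -145 (PRE5) and -378.5 bp (PUP1) past it. At 6 h the means of PRE1, PRE2, PRE5 and PRE6 were 12 to 92.5 bp past it. A summit lay in or within 250 bp of 7 of the 9 genes in each 6 h library, and of all 9 in each 0 h library. Among all placed genes these shares were 23.3% and 20.4% in the 6 h replicates, against 19.8% and 19.5% in the 0 h replicates. The same 7 genes had a summit in all 4 libraries, against 9.88% of all placed genes, and the members were chosen with these summits known. With the better-scoring 50% of each list, only PRE10 had a summit in all 4 libraries.

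Inside the gene itself the counts were lower. In 6 h replicates 1 and 2, 0 and 2 of the 9 genes had a summit between start and stop codon, and in the 0 h replicates 4 and 4. Over all placed genes the shares were 11.1% and 8.95% in the 6 h libraries, against 11.6% and 12.2% in the 0 h libraries. PRE2 and PRE7 were the genes with a 6 h summit, and it lay within 17 bp of the stop codon in both. None of the 9 had one in all 4 libraries, against 3.23% of all placed genes. At 0 h the genes were PRE1, PRE2, PRE10 and PUP1 in replicate 1, and PRE1, PRE5, PRE8 and PUP1 in replicate 2.

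**Figure D1:**
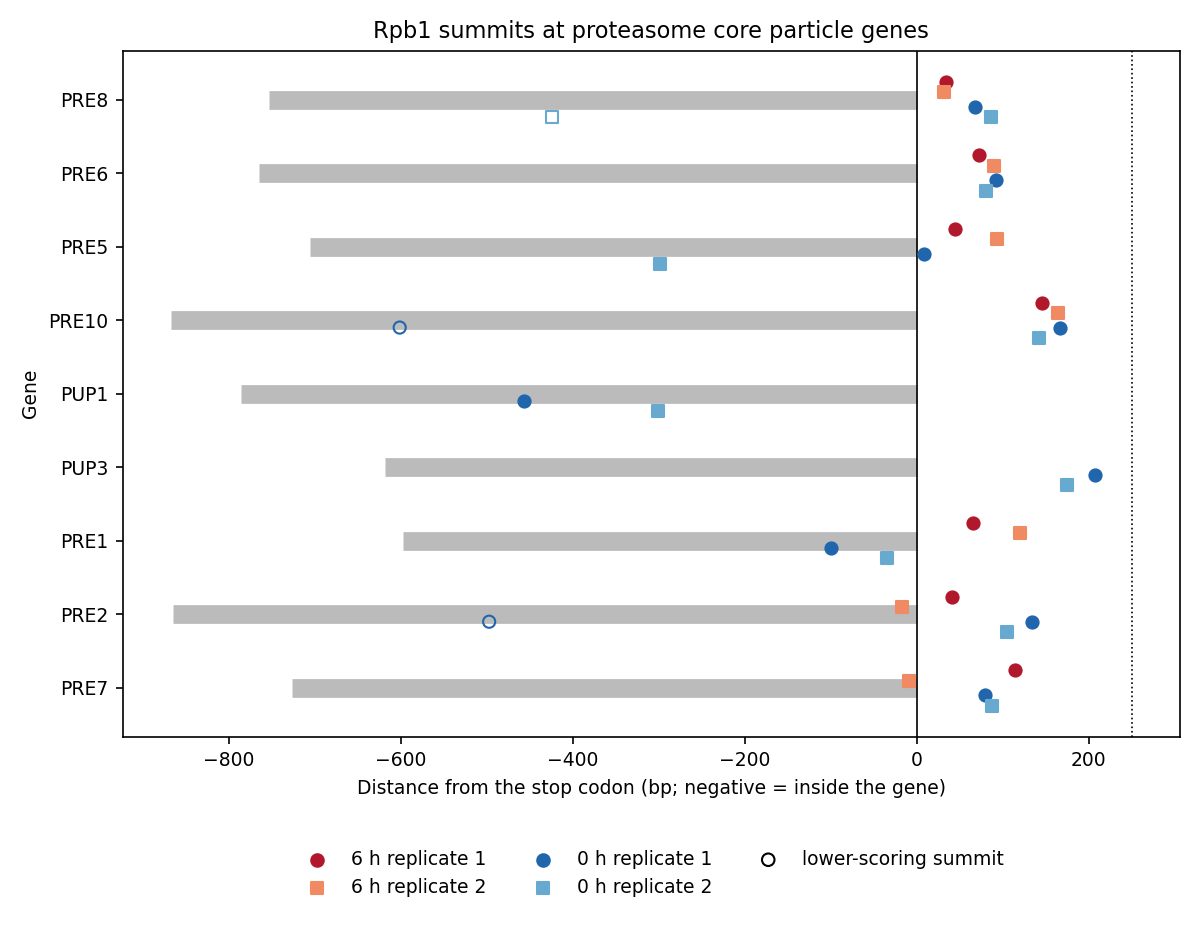
Summits in each core particle gene or within 250 bp of it, by distance from the stop codon in bp; grey bars are the genes from start to stop codon, symbols are the 4 libraries with 6 h drawn above 0 h, open symbols are lower-scoring summits of the same gene and library, and the dotted line is the limit of 250 bp. Most symbols sit between 8 and 207 bp past the stop codon, and the 6 h rows of PUP1 and PUP3 are empty.

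Among the alpha ring genes, PRE6, PRE8 and PRE10 had their best-scoring summit past the stop codon in all 4 libraries. PRE6, encoding subunit alpha 4, had it 72 and 90 bp past the stop codon in 6 h replicates 1 and 2, and 92 and 81 bp past it in 0 h replicates 1 and 2. The 4 values overlap between the times. Its neighbour downstream, YOL036W, starts 643 bp away, and no other gene lies within 250 bp of these summits.

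PRE10 encodes subunit alpha 7. Its best summit lay 146 and 164 bp past the stop codon at 6 h and 167 and 142 bp past it at 0 h, so these values overlap too. The gap to the next gene, PRT1, a translation initiation factor gene read in the same direction, is 227 bp. Each of the 4 summits was thus 61 to 86 bp from PRT1 and is shared with it.

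PRE8, encoding subunit alpha 2, had its best summit 34 and 32 bp past the stop codon at 6 h and 68 and 86 bp past it at 0 h. Both 6 h summits were upstream of both 0 h summits, by a mean of 44 bp (means of 33 ± 1.41 bp at 6 h and 77 ± 12.7 bp at 0 h, SD, n = 2 each). PRE8 converges with UTP14, a gene of small-subunit ribosomal RNA processing whose end is 197 bp away, and the 4 summits fall within 250 bp of both.

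PRE5, encoding subunit alpha 6, was the least reproducible gene of the alpha ring. Its summit lay 45 and 93 bp past the stop codon in 6 h replicates 1 and 2. In 0 h replicate 1 it lay 8 bp past the stop codon, and in 0 h replicate 2 it lay 298 bp before it. The 6 h summits were downstream of both 0 h ones, by a mean of 214 bp, but the 0 h replicates stood 306 bp apart.

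The 5 beta ring genes included both that had no 6 h summit within 250 bp, PUP1 and PUP3. All 4 alpha ring genes had such a summit in every library, and 3 of the 5 beta ring genes did, a difference of counts that was not tested.

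PUP1, encoding subunit beta 2 with the trypsin-like site, had summits in mid-gene at 0 h and none at 6 h. The 0 h summits lay on chromosome XV at 631422 and 631267 in replicates 1 and 2, in the coordinates of the lists, 329 and 484 bp from the start codon. Their scores were 7.04 and 5.89, ranks 630 of 1186 and 709 of 1194. No 6 h summit lay within 700 bp of the gene. These were lower ranks than those of any other member's best summit in the same 0 h library.

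PUP3 encodes subunit beta 3, which has no active site. It had summits 207 and 175 bp past the stop codon in 0 h replicates 1 and 2, and none within 250 bp in either 6 h library. In 6 h replicate 1 a summit with a score of 5.52 lay 292 bp past the stop codon, outside the limit, and 37 bp from AIM11, the next gene in the same direction. The 0 h summits, 122 and 154 bp from AIM11, are shared with it. At PUP3 the absence at 6 h therefore turns on the limit in replicate 1, and it had no summit within 700 bp in replicate 2.

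By the gene positions used, PRE1, encoding subunit beta 4, had its summit inside the gene at 0 h and past the stop codon at 6 h. The 6 h summits lay on chromosome V at 178496 and 178551, 65 and 120 bp past the stop codon. The 0 h summits lay at 178331 and 178396, 100 and 35 bp before it. Near PRE1 the summits of other genes were offset from gene middles by -89.1 bp, so the side of the stop codon is uncertain. Means were 92.5 ± 38.9 bp past the stop codon at 6 h and -67.5 ± 46.0 bp at 0 h (SD, n = 2 each), a displacement of 160 bp downstream with no overlap between the times. PRE1 has no other gene within 250 bp of these summits.

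PRE2, which encodes subunit beta 5 with the chymotrypsin-like site, had the opposite order. Its best summit lay 41 bp past and 17 bp before the stop codon in 6 h replicates 1 and 2. At 0 h it lay 134 and 105 bp past the stop codon. Both 6 h summits were upstream of both 0 h summits, by a mean of 107.5 bp (12 ± 41.0 bp at 6 h and 119.5 ± 20.5 bp at 0 h, SD, n = 2 each).

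PRE7, encoding subunit beta 6, had its summit 114 bp past and 9 bp before the stop codon in 6 h replicates 1 and 2, and 80 and 87 bp past it in 0 h replicates 1 and 2. The times overlap, and the 6 h replicates differed by 123 bp against 7 bp at 0 h. The convergent gene ERD2 ends 139 bp away, and all 4 summits are within 250 bp of it.

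Lower-scoring second summits were found at 0 h only among these genes. PRE2 and PRE10 each had one in 0 h replicate 1, 366 and 265 bp from the start codon, with scores of 3.26 and 4.48. PRE8 had one in 0 h replicate 2, 328 bp from the start codon, with a score of 5.78. None of the 3 was found in the other 0 h replicate. The number of genes with more than 1 summit was 0 and 0 of 9 in 6 h replicates 1 and 2, and 2 and 1 of 9 in 0 h replicates 1 and 2. Of all placed genes, 2.21% and 1.57% had more than 1 in the 6 h libraries, against 2.30% and 2.21% in the 0 h libraries.

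By the gene-body rule, a gene is gained when both 6 h libraries and no 0 h library have a summit between its start and stop codon, and lost in the opposite case. None of the 9 genes was gained and 2 were lost, PRE1 and PUP1, where 2.19% of all placed genes were gained and 3.12% lost. The count of lost members was 1 with 500 bp added and with the better-scoring 50% of summits. It was also 1 with genes moved by 250 bp to the right or by the local offset, and with the local offset PRE1 was no longer lost. It was 3 without 0 h replicate 2 and 4 without 0 h replicate 1. As the mean within same-numbered pairs, 4 were lost and 1 was gained. Without 6 h replicate 1, 1 was gained as well. Shares of all placed genes were not computed for these alternatives, so their counts have no reference. With 250 bp added, 0 were gained and 2 were lost, PUP1 and PUP3, against 4.31% and 3.06%. PUP1 is thus the only member lost by both rules, since PRE1 had a 6 h summit past its stop codon and PUP3 had no summit inside the gene in any library. With 2 libraries against 2, the smallest p of an exact permutation test is 0.33, so no call was tested.

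Over the 7 genes with a summit in all 4 libraries, the best summit lay a median of 69 bp past the stop codon at 6 h and 83.5 bp past it at 0 h. Of these 7, PRE7, PRE8 and PRE10 share their best summits with another gene. With the summit nearest to the middle of the gene in place of the best one, the median over the 7 genes was 69 bp past the stop codon at 6 h and 145 bp before it at 0 h. Over all 339 placed genes with a summit in all 4 libraries, it lay a median of 36 bp before the stop codon at 6 h and 194 bp before it at 0 h. The members are 597 to 867 bp long, and the 339 genes were not matched to them for length. Whether the difference in position goes with gene length was not tested. The best summit was past the stop codon in all 4 libraries in 3 of the 7 genes, against 16.5% of the 339. In both 6 h libraries it was so in 5 of 7 (36.3%), and in both 0 h libraries also in 5 of 7 (21.5%). The genome build of the lists is not stated and gene ends carry an uncertainty. Within 150 kb of each member, the summits of other genes were offset from gene middles by -89.1 to 150 bp when averaged over both strands. These offsets differ in sign and size between members, so the strand medians are no test of position, and an error of position was not tested. At 6 h the median was 69 bp past the stop codon in 5 genes on the plus strand and 94 bp in 2 genes on the minus strand. At 0 h it was 83.5 bp in 5 and 116 bp in 4. Those 4 include PUP1 and PUP3 and ranged from -378.5 to 191 bp.

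**Figure D2:**
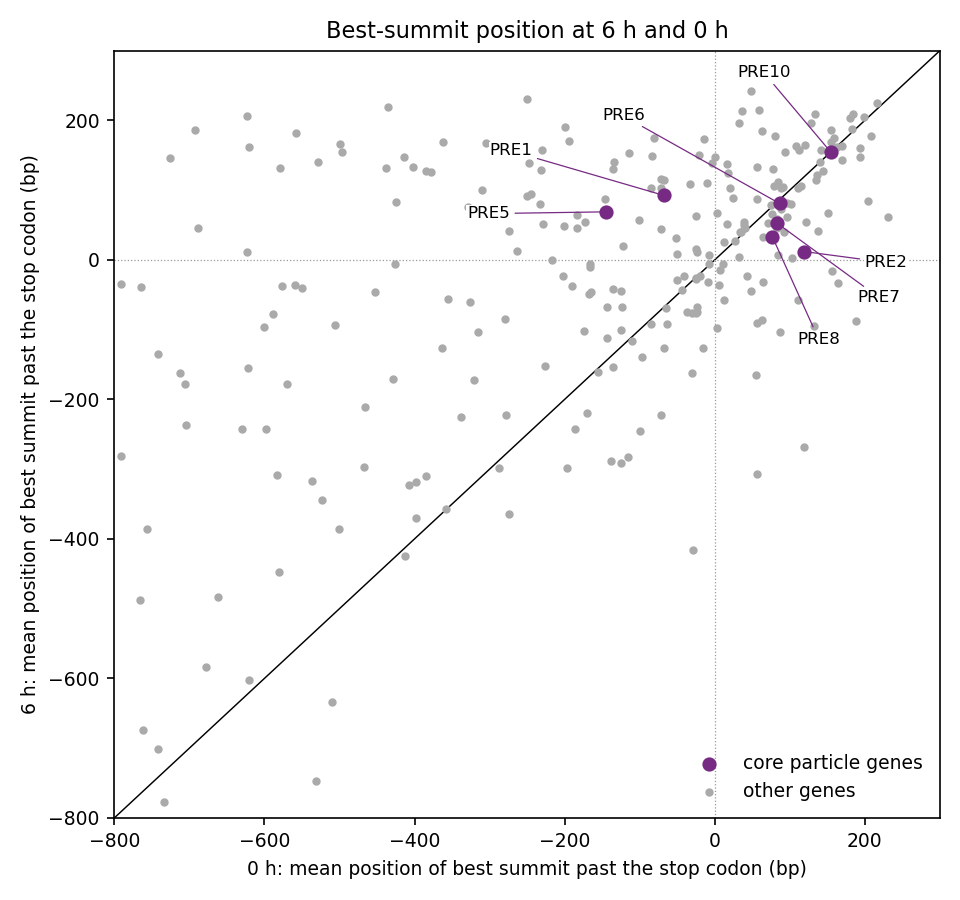
Mean position of the best summit relative to the stop codon, in bp, at 6 h (vertical) and 0 h (horizontal) for genes with a summit within 250 bp in all 4 libraries; purple points are 7 core particle genes, grey points other genes, and the line marks equal positions. The axes leave out 77 genes with a mean further than 800 bp before the stop codon at either time. At 0 h, 5 of the 7 purple points lie right of the dotted line at the stop codon. PRE1 and PRE5 lie well above the diagonal, and PRE10 lies almost on it, 0.5 bp above.

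The best summit of the 7 genes was displaced by a median of -5.5 bp between the times (6 h minus 0 h, positive downstream), with a range of -107.5 to 214 bp. The median over the 339 genes, which were not matched to the members for length or 0 h position, was 84.5 bp. Where both 0 h best summits lay past the stop codon, the median was -31 bp in 5 members and -6 bp in 73 placed genes. Among the others it was 187 bp in 2 members and 175.5 bp in 266 placed genes. Both 6 h positions exceeded both 0 h positions in 2 genes, PRE1 and PRE5, against 40.7% of the 339, and fell short of both in 2, PRE2 and PRE8, against 10.3%. In PRE6, PRE7 and PRE10 the times overlapped. The median was 77.25 bp over PRE1, PRE2, PRE5 and PRE6, the 4 of the 7 whose best summits are not shared with another gene. With the summit nearest to the middle of the gene it was 208 bp, since the lower-scoring 0 h summits of PRE2, PRE8 and PRE10 then counted. The window ends 250 bp past the stop codon, so a displacement beyond that was not counted.

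Replicates of the 7 genes agreed to within a median of 48 bp at 6 h and 25 bp at 0 h. The same medians over the 339 genes, not matched to the members for length, were 78 and 96 bp. PRE8 had the closest pair, 2 bp apart at 6 h, and PRE5 the widest, 306 bp apart at 0 h.

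Scores placed most of the core particle genes in the middle part of the lists. The best summits of the 7 genes present at 6 h ranked between the top 33.9% and 93.6% of 6 h replicate 1, with a median of 45.2%, and between 39.0% and 74.95% of 6 h replicate 2, with a median of 50.7%. At 0 h the 9 genes ranked between 29.3% and 53.1% of replicate 1, with a median of 37.2%, and between 32.3% and 59.4% of replicate 2, with a median of 43.0%. Over all placed genes with a summit within 250 bp, the median rank was 45.3% and 47.7% in the 6 h lists, against 46.1% and 44.8% in the 0 h lists. Over the 339 genes with a summit in all 4 libraries, the group to which the 7 members belong, it was 30.05% and 35.6% in the 6 h lists, against 33.1% and 32.0% in the 0 h lists. The same 7 members had medians of 45.2% and 50.7% in the 6 h lists, against 37.1% and 41.5% in the 0 h lists, lower in rank than the medians of those 339 genes in each library. Lists of different lengths are not on one scale, so these ranks describe each library and show no change between them.

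The highest-ranked member differed between libraries. In 6 h replicate 1 it was PRE6, with a score of 12.3 (rank 437 of 1288), and in 6 h replicate 2 it was PRE10, with 14.0 (rank 419 of 1074). In both 0 h libraries it was PRE10, with 15.02 (rank 348 of 1186) and 13.1 (rank 386 of 1194). The lowest was PRE5 in 6 h replicate 1, with a score of 2.74 (rank 1206), a gene that scored 11.3 (rank 483) in 6 h replicate 2.

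**Figure D3:**
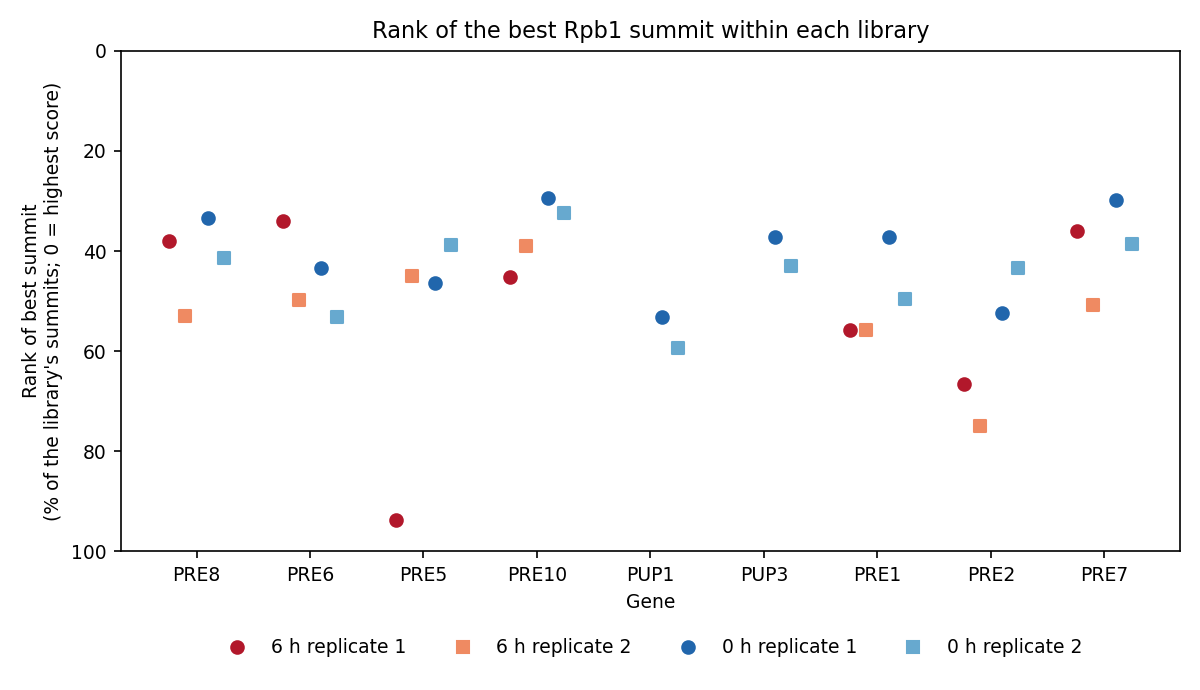
Rank of the best summit of each core particle gene as a percentage of all summits of its library, where 0 is the highest score, with the 6 h libraries left of the 0 h libraries for each gene. Most points lie between 30% and 60%, PRE5 in 6 h replicate 1 is at 93.6%, and PUP1 and PUP3 have no 6 h point.

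Ranks of 3 other genes came closest to the median ranks of the members over the 4 libraries, among 332 non-member genes with a summit in all 4. They were NIP1, a translation initiation factor subunit, UTP14, and APS1, encoding an adaptor complex subunit of vesicle transport. Their ranks differed from the member medians by a mean of 3.32, 3.67 and 4.20 percentage points. UTP14 is close because its best summit is the summit of PRE8. At APS1 the summit lay 401 to 425 bp before the stop codon in all 4 libraries, unlike at the core particle genes.

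Among 38 other genes of the proteasome, 13 could be placed, and the rest, including the 5 remaining core particle genes and RPN4, got no value. With 250 bp added, 6 and 6 of the 13 had a summit in 6 h replicates 1 and 2, and 8 and 6 in 0 h replicates 1 and 2. The shares of all placed genes were 23.3% and 20.4% in the 6 h replicates, against 19.8% and 19.5% in the 0 h replicates. In all 4 libraries there were 4, namely RPT1, RPT4, RPN8 and POC4 (9.88% of all placed genes), and 2 had none in any library (67% of all placed genes), RPN13, a ubiquitin receptor, and HSM3, an assembly chaperone. The median displacement of the 4 was 57.5 bp, over a range of -228 to 561.5 bp.

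RPN8, a lid subunit of the regulatory particle, had its best summit 93 and 129 bp past the stop codon at 6 h. At 0 h it lay 45 bp before and 25 bp past the stop codon, so both 6 h summits were downstream, by a mean of 121 bp. All 4 summits are shared with GCD1. RPT1, an ATPase of the regulatory particle, had its best summit inside the gene, 256 and 66 bp before the stop codon at 6 h and 137 and 173 bp before it at 0 h, with overlap between the times. RPT4, another ATPase, had its best summit 185 and 109 bp past the stop codon at 6 h. At 0 h it lay 1006 bp before the stop codon in replicate 1 and 177 bp past it in replicate 2. Lower-scoring 0 h summits lay 25 bp past the stop codon (score 3.50) and 357 bp before it in replicate 1, and 1007 bp before it in replicate 2. Both 0 h libraries thus had a summit past the stop codon and one far inside the gene. A lower-scoring summit of 6 h replicate 1 lay 474 bp before the stop codon. The RPT4 summits past the stop codon are shared with HNT3.

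The gained genes of this list share their summits with genes of ribosome production. POC4, an assembly chaperone gene, was gained by the gene-body rule, 1 of 13 against 2.19% of all placed genes. Its 6 h summits scored 73.9 and 65.1 (ranks 20 and 79), lay 71 and 119 bp before the stop codon, and are shared with SNR17B, a gene of the U3 small nucleolar RNA. The 0 h summits, with scores of 21.3 and 26.7, lay 105 and 161 bp past the stop codon and are shared with SNR17B as well. With 250 bp added, IRC25, also an assembly chaperone gene, was gained in place of POC4, 1 of 13 against 4.31% of all placed genes. It had scores of 4.87 and 5.17 at 6 h, and its summits are shared with SDO1, a gene of ribosome maturation. Neither rule found a lost gene among the 13, where 3.12% of all placed genes were lost by gene body and 3.06% with 250 bp added.

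**Figure D4:**
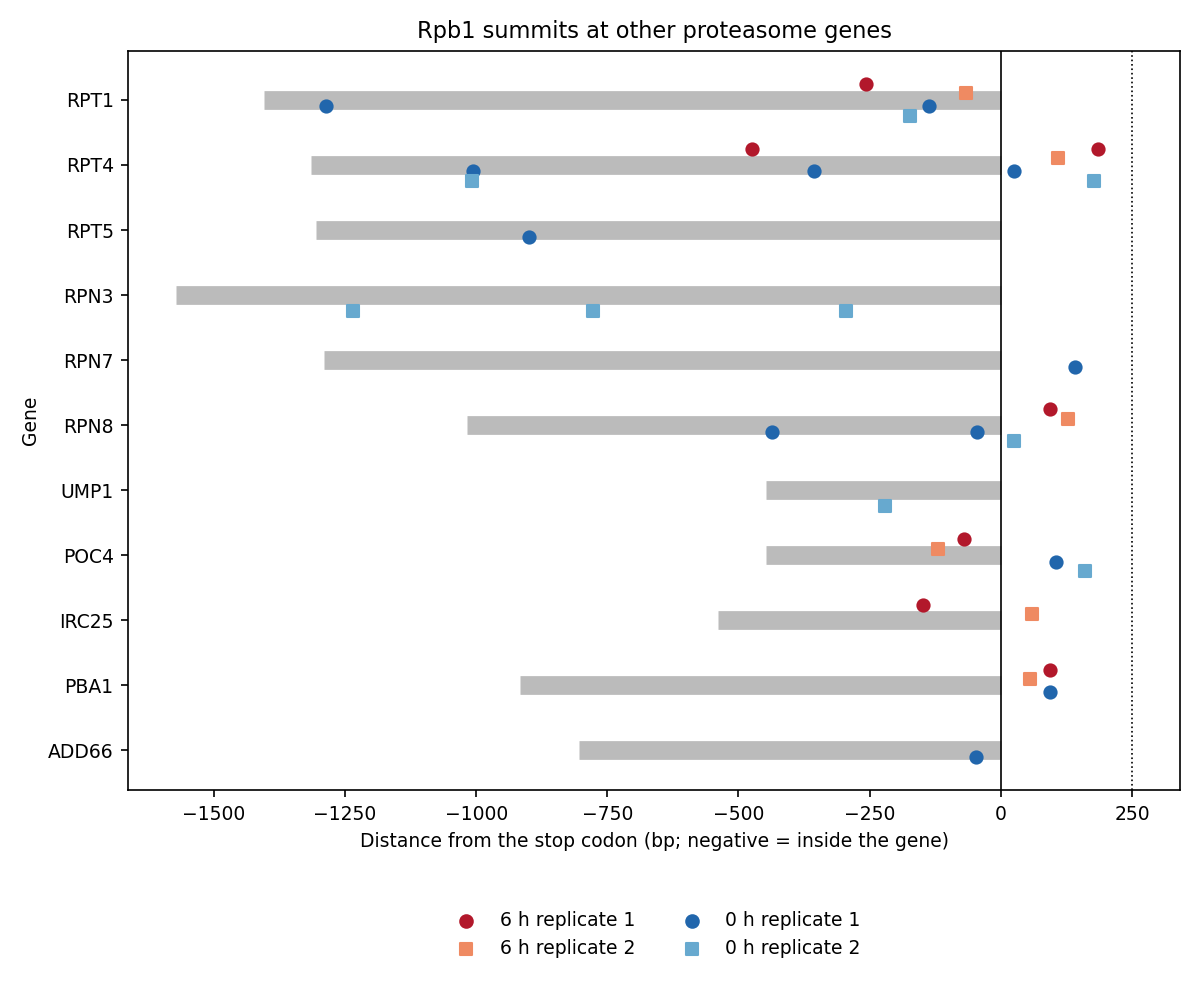
Summits in 11 other proteasome genes or within 250 bp of them, by distance from the stop codon in bp; grey bars are the genes, symbols the 4 libraries with 6 h above 0 h, and the dotted line is the limit of 250 bp. RPT5, RPN3, RPN7, UMP1 and ADD66 had summits in a single 0 h library and none at 6 h.

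A further 5 regulatory particle and assembly genes had summits in a single 0 h library only. RPT5, RPN7 and ADD66 had 1 summit each in 0 h replicate 1, with scores of 3.45, 2.64 and 3.32. RPN3 had 3 summits in 0 h replicate 2, with scores of 3.06 to 5.06, and UMP1, encoding a chaperone of core particle maturation, had 1 there with a score of 5.48. None of the 5 genes had a summit in either 6 h library. PBA1, an alpha ring assembly chaperone gene, had summits 93 and 55 bp past the stop codon at 6 h and 93 bp past it in 0 h replicate 1, all shared with NOP56.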

How the data were processed

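Rpb1 chromatin immunoprecipitation was deposited as a list of peak summits for each of the 4 libraries, so replicates were not pooled. The deposited score is a −log10 value, and whether a p-value or a q-value lies behind it is not stated. Per the submitters' processing notes the tools were MACS2 2.2.7.1 (peak calling software), SAMtools 1.10, Bowtie2 2.2.4 and fastp 0.20.1, with no parameters. The peak threshold and genome build are not given in the sources. Depth is unknown. Groups came from the sample titles.

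The RefSeq R64 table gave gene positions and names, and locus tags gave strands. Positions were checked by sliding 271 landmark genes of translation, glycolysis and small nucleolar RNAs by up to 12000 bp either way, 100 bp at a time. Chromosomes with at least 10 landmarks and a best shift within 500 bp were used, 8 of 16. On the 5 chromosomes of the core particle genes the best shift was 0 bp and a summit lay within 250 bp of 88.9% to 100% of landmarks. No coordinates were converted. Distances are from the last base of the stop codon or the first base of the start codon, and a summit is shared if another annotated gene lies within 250 bp. The best summit is the highest-scoring one.

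The core particle genes and the proteasome list were chosen with earlier results of these data known. Named genes were all 9 members, genes sharing their summits, other proteasome genes that were gained, lost or present in all 4 libraries, GAL1, GAL10 and GAL2, and the 3 genes of closest rank; the remaining proteasome genes with a summit were named after their values were seen. Alternatives were the window, the better-scoring 50% of summits, each library left out, a replicate block, shared summits, the choice of summit and moved gene positions. A planned comparison of promoter motifs was not run, since no sequence was used here. Python 3.11.15, pandas 2.3.3 and matplotlib 3.10.9 were used.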

Additional observations from a re-analysis of the deposited data

How the results depend on the processing

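These counts rest on few genes, and the alternative rules in the next sentences were not applied to all placed genes. By gene body, 1 member was lost in place of 2 with 500 bp added, with only the better-scoring 50%, with genes moved by 250 bp to the right, and with genes moved by the local offset. Leaving out each library gave 0 to 1 gained members, 1 without 6 h replicate 1, and 2 to 4 lost members, 4 without 0 h replicate 1, as fewer libraries make the rule easier to pass. Replicate numbers are shared between the times, but deviations of same-numbered libraries had a correlation of 0.0326 over 3432 genes, which gave no ground for pairing. The replicate block gave a mean of 1 gained and 4 lost members, and the median displacement was -5.5 bp. Of the 13 other proteasome genes, 1 was lost with 500 bp added and 0 were gained with genes moved by 250 bp to the left, the block gave a mean of 3 lost, and the left-out libraries gave 1 to 2 gained (2 without 6 h replicate 2) and 0 to 3 lost (3 without 0 h replicate 2).

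Members with a summit in the gene, in 6 h replicates 1 and 2 against 0 h replicates 1 and 2, were 7 and 7 against 9 and 9 with 250 bp added, and 8 and 7 against 9 and 9 with 500 bp added. They were 0 and 0 against 1 and 2 with the better-scoring 50%, 5 and 5 against 7 and 7 with genes moved to the right, and 2 and 2 against 5 and 5 with genes moved to the left. Members with a summit within 250 bp in all 4 libraries were 1 (PRE10) with the better-scoring 50% and 2 with genes moved to the left, in place of 7, and 7 without each library in turn.

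The median displacement was 208 bp with the summit nearest to the middle of the gene in place of the best, because the lower-scoring 0 h summits of PRE2, PRE8 and PRE10 then stood for these genes, at 208, 211 and 384.5 bp. It was 77.25 bp over the 4 members that were present in all 4 libraries and had no shared best summit. Without each library in turn it ran from -12 to 3.5 bp. No member had summits inside the gene in all 4 libraries, so that alternative gave no value. The median position past the stop codon was 155 bp for 6 h and 154.5 bp for 0 h with the better-scoring 50%, where 1 gene remained. It was -181 and -166.5 bp over 5 genes with genes moved to the right, and -156 and -134.25 bp over 2 genes with genes moved to the left, the 6 h value first; the move leaves genes of a single strand in the window, so these are the medians of that strand less 250 bp and say nothing of stability. At 0 h it was -145 bp with the summit nearest to the middle and 63 bp with the local offset, and without each library in turn it ran from 80 to 86 bp, and from 65 to 90 bp at 6 h. The count over all 4 libraries, the position past the stop codon and the local offset were added after seeing the data. What causes the remaining differences was not tested.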

Other observations

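Some summits lay outside the limit of 250 bp on the promoter side of core particle genes. Upstream of PRE6, summits lay 403 and 372 bp before the start codon in 6 h replicates 1 and 2, with scores of 32.7 and 18.4 (ranks 197 and 348), inside the small gene YOL038C-A. In 0 h replicate 1 the nearest upstream summit lay 671 bp before the start codon and 49 bp from RPP2A, a ribosomal protein gene, with a score of 27.8 (rank 233), and 0 h replicate 2 had none within 700 bp. Upstream of PRE1, a summit in 6 h replicate 2 with a score of 17.2 (rank 364) lay 698 bp before the start codon, inside a tRNA gene. That is at the edge of the 700 bp searched.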
